A study of Mus musculus with 24 samples.

Results

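Grem1, Nog, Dkk1, Dkk2, Dkk3, Sfrp1, Sfrp2, Frzb and Wif1 encode secreted proteins that hold back Wnt or BMP signals, and their RNA was followed across the 8 groups of a microarray study of mouse osteocytic cells. The 9 genes were chosen by name. Each had 1 probe set whose only gene symbol on the array was its own, and they are 9 of 19938 genes with such a row. Of the 9 genes, 5 (Grem1, Dkk3, Nog, Wif1 and Dkk1) passed a filter on dim rows and are among 14489 genes tested. The other 4 (Dkk2, Sfrp1, Sfrp2 and Frzb) did not pass.

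The cells were MLO-Y4, an immortalised line made from the long bones of mice that carry a viral large T antigen under the osteocalcin promoter, so that every group shares this transgene. Cells were held with antibody at a 1:50 dilution for 30 min at 37 °C in 5% CO2. In the arm called IgG it was a rabbit IgG of irrelevant specificity. In the arm called E2 it was Cx43(E2) at 28 µg/ml, which closes the hemichannels that connexin 43 forms. The dishes of each arm were then parted into a control in the incubator (C) and cells cultured on a platform for high magneto-gravitational conditions, at its 1g, 2g or μg position, the last written ug here. Each of the 8 groups has 3 arrays. Arrays with 1 arm and 1 title number in common, 4 in each case, make up a set, so that IgG 2 holds the C, 1g, 2g and ug arrays numbered 2 in the IgG arm, and there are 6 sets. How long cells stayed on the platform is not stated in the sources used here. All levels below are on the log2 scale of the deposited values, and a change is a difference of log2 levels with its standard error. The labels do not say whether replicates came from separate cultures, so p-values measure only the spread between these arrays, and the number of arrays limits the precision.

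Wnt ligands act through Frizzled receptors and the co-receptors Lrp5 and Lrp6 to stabilise beta-catenin, and BMP ligands act through type I and type II receptor kinases to activate Smad proteins. Both pathways favour bone formation. Cells of the bone lineage release inhibitors of both, of which the osteocyte product sclerostin (gene Sost) is the best known. Gremlin 1 (Grem1) and noggin (Nog) bind BMPs outside the cell and keep them from their receptors. Dkk1 and Dkk2 bind Lrp5 and Lrp6, Dkk3 is a divergent Dickkopf protein that does not act on these co-receptors in the same way, and Sfrp1, Sfrp2, Frzb (also called Sfrp3) and Wif1 bind Wnt ligands themselves.

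The labelled cell type was checked against osteocyte markers. Pdpn at 12.7, Capg at 12.45 and Gja1 (connexin 43, the target of the antibody) at 11.68 were bright. Sost at 7.07 and Fgf23 at 7.04 passed the filter, whereas Dmp1 at 4.74, Mepe at 4.6 and Phex at 4.61 did not pass it. Thus 5 of 8 osteocyte markers on the array passed, and RNA of the other 3 was not told from the dim end of the array. The same filter passed 5 of 6 endothelial and 4 of 5 chondrocyte markers. A pass therefore does not by itself show a cell type, or that a gene is expressed. Array medians lay between 6.48 and 6.65, and the 40th percentile that set the filter lay between 5.9 and 6.08.

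Grem1 (probe set 10485948, on chromosome 2) was among the brightest genes of these cells. Its mean over the 24 arrays was 12.78, at the 98.9th percentile of an array's values, and it ran from 12.55 to 12.96. Dkk3 (10567010) had a mean of 8.48, at the 71.0th percentile, close to the median gene level of 8.41. Nog (10389752) at 6.84, Wif1 (10366653) at 6.39 and Dkk1 (10467006) at 6.33 lay near the middle of the array, at the 53.9th, 47.0th and 46.0th percentiles, and were above the 40th percentile on 24 of 24 arrays. The endothelial markers Cdh5 at 6.49 and Tie1 at 6.25 lay at similar levels, so such a level does not by itself show that the RNA was made. Sfrp2 (10492798) at 5.85 reached that percentile on 2 arrays. Dkk2 (10496125) at 5.66, Sfrp1 (10570957) at 5.25 and Frzb (10484307) at 5.04 reached it on 0 arrays. Percentiles rank a row within its array. Probe sets differ in how brightly they bind, so these levels give no ratio of one transcript to another.

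**Figure D1:**
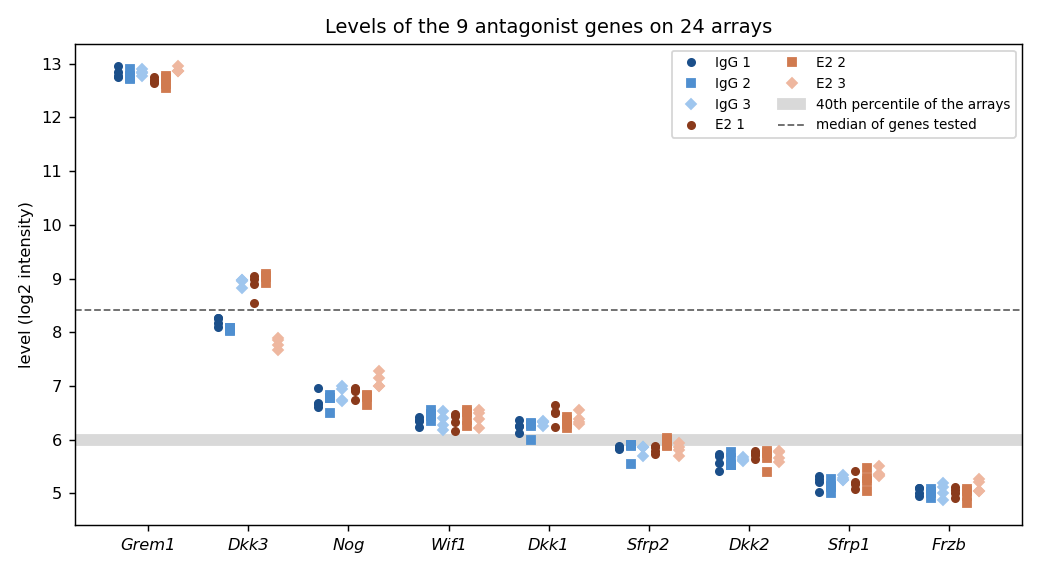
Log2 level (vertical axis) of each of the 9 genes (horizontal axis) on all 24 arrays (points, coloured by set), with a grey band for the 40th percentile of the arrays and a dashed line for the median of genes tested. Grem1 sits between 12.55 and 12.96, Dkk3 is spread widely around 8.48, and Dkk2, Sfrp1 and Frzb lie below the band, while Sfrp2 reaches into it on some arrays (highest 6.03).

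The DNA ahead of Grem1 is shown because Grem1 is the bright member whose RNA differed between the platform and the incubator. RefSeq promoter sequences (GRCm38.p6) were found for 6 of the 9 genes: Grem1, Dkk1, Dkk2, Sfrp2, Frzb and Wif1. The 250 bases before the annotated start of Grem1, on the minus strand at chr2:113758649-113758898, are given 5′ to 3′ with GC boxes (GGGCGG) in capitals.
Grem1: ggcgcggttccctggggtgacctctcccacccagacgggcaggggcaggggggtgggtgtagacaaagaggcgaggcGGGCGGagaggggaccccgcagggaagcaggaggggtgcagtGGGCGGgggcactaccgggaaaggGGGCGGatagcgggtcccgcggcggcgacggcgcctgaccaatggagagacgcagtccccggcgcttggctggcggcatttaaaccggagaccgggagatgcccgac
This stretch is 72.0% G and C, against a median of 52.4% over all promoters in the table. It holds 3 GC boxes, a motif that 32.7% of 32851 promoters of this length hold on either strand. It holds none of TATAAA (in 12.4% of promoters), CTTTGA, the core letters of TCF and LEF sites (13.8%), or GAANNTTC, a heat shock element core (6.69%). The motifs do not overlap one another here, and a match is a description of letters only.

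Grem1 RNA was lower on the platform than in the incubator. In the IgG arm the C arrays of numbers 1, 2 and 3 read 12.95, 12.90 and 12.90. The 1g arrays read 12.75, 12.71 and 12.77, the 2g arrays 12.78, 12.78 and 12.85, and the ug arrays 12.84, 12.73 and 12.83. All 3 incubator arrays therefore lay above all 9 position arrays of that arm, a pattern that 1.9% of genes tested had. In the E2 arm the C arrays read 12.75, 12.77 and 12.96, the 1g arrays 12.64, 12.62 and 12.86, the 2g arrays 12.69, 12.55 and 12.86, and the ug arrays 12.68, 12.73 and 12.87. The E2 groups overlap, and number 3 of that arm was the brightest in every environment.

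The incubator array was the highest of its set in 6 of 6 sets, and 18 of 18 position arrays lay below the incubator array of their own set. Of the genes tested, 56 (0.387%) had the incubator array highest in all 6 sets, and 14 (0.0966%) had it lowest in all 6. The mean of the 3 positions lay below C by a log2 difference of -0.16 (number 1), -0.16 (number 2) and -0.08 (number 3) in the IgG arm, and of -0.08, -0.14 and -0.10 in the E2 arm.

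**Figure D2:**
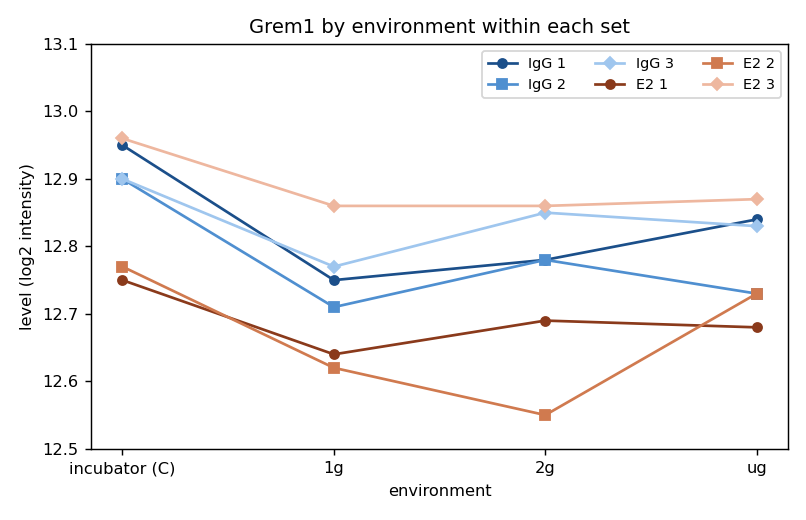
Log2 level of Grem1 in each environment, with a line for each of the 6 sets. The C array is the highest point of every line, from 12.75 in E2 1 to 12.96 in E2 3, and the lowest point is 12.55 at 2g in E2 2. The vertical axis does not start at 0.

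With both arms together and each set as a block, Grem1 fell by 0.12 ± 0.02 (limma adjusted p = 0.00944, lower in 6 of 6 sets), which is 7.96% lower on the linear scale. This comparison called 97 genes (0.669%), 82 of them lower (0.566%), and Grem1 was the ninth by p; of the 5 members tested it was the only 1 called. At the 1g position alone it fell by 0.15 ± 0.02 (limma adjusted p = 0.0153), or 9.74%, where 18 genes (0.124%) were called. At 2g the change was -0.12 ± 0.02 (limma adjusted p = 0.0916, with 0.0207% of genes called) and at ug -0.09 ± 0.02 (limma adjusted p = 0.0954, with 0.628% of genes called). Neither passed the threshold of 0.05. These comparisons and their block were added after the data were seen, and all share the 6 incubator arrays.

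The call rests on the form of the block and of the variance model. Without a block, the change of -0.12 over both arms had a limma adjusted p of 0.703 and that at 1g, -0.15, one of 0.852, and 0 genes were called in either (897 and 838 at an unadjusted p under 0.05). Leaving out set IgG 1 or IgG 2 gave -0.11 with limma adjusted p-values of 0.0889 and 0.151, and the count of genes called over the whole array dropped to 8 and 1. Treating sets as a random effect gave a limma adjusted p of 0.0868 for the mean of positions and 0.143 at 1g, and a fit with no variance trend gave 0.0773 and 0.103. The call for the mean of positions was also lost without the IgG incubator array 1 (0.0642) or 2 (0.0729) or the E2 incubator array 2 (0.0515). At 1g it was lost without any 1 of the sets IgG 1, IgG 2, E2 1 and E2 2 (limma adjusted p = 0.135, 0.203, 0.0607 and 0.0746) and without any 1 of 7 single arrays (0.0536 to 0.101).

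The change of Grem1 over both arms is set here beside that of other bright genes. Among the brightest 5% of genes (725 genes) the median change between platform and incubator was 0.00, and 4 of them were lower by more than Grem1. Of 90 genes as bright as Grem1 or brighter, itself included, 1 was called lower, which was Grem1. Genes below the median level shifted by a median of 0.01 and those above it by -0.01. Within the arms these shifts were 0.05 and -0.03 (IgG) and -0.04 and -0.01 (E2). The part of such shifts in the Grem1 difference was not tested. Of the 6 marker lists of cell types, the chondrocyte list differed most between C and a position. Its 5 markers averaged 7.52 at C and 7.53, 7.57 and 7.61 at 1g, 2g and ug. The 8 osteocyte markers averaged 8.09, 8.1, 8.11 and 8.15, the 4 osteoblast markers 7.69, 7.71, 7.71 and 7.68, and the 7 osteoclast or macrophage markers 6.9, 6.91, 6.9 and 6.95. The 4 adipocyte markers averaged 6.4, 6.38, 6.41 and 6.44, and the 6 endothelial markers 6.27, 6.26, 6.31 and 6.31. Some single markers gave values as large as Grem1 in the other direction. Over both arms with the block Sox9 lay at 0.16 ± 0.08 (limma adjusted p = 0.347), Cd68 at 0.15 ± 0.06 (limma adjusted p = 0.24) and Pecam1 at 0.19 ± 0.07 (limma adjusted p = 0.194), each above C in 6 of 6 sets. Capg lay at 0.05 ± 0.02 (limma adjusted p = 0.172). None of these passed the test, and their part in the Grem1 difference was not tested. Less RNA per cell and fewer cells that make it cannot be told apart in bulk RNA.

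Taken one arm at a time, the IgG arm gave group means of 12.92 ± 0.03 at C, 12.74 ± 0.03 at 1g, 12.80 ± 0.04 at 2g and 12.80 ± 0.06 at ug (SD, n = 3). The mean of the positions lay at -0.13 ± 0.06 from C (limma adjusted p = 0.473) without a block. With the block within arm it fell by 0.13 ± 0.03 (limma adjusted p = 0.0374), where 102 genes (0.704%) were called. The E2 arm gave 12.83 ± 0.12 at C, 12.70 ± 0.13 at 1g, 12.70 ± 0.16 at 2g and 12.76 ± 0.10 at ug. Its mean change of -0.11 ± 0.03 with the block had a limma adjusted p of 0.622, and 0 genes were called there (1004 at an unadjusted p under 0.05). The difference between the arms in this change was 0.02 ± 0.04 (95% interval -0.06 to 0.11, limma adjusted p = 0.808). No difference between the arms was therefore detected, although the interval reaches 0.11, close to the size of the change itself. Between positions Grem1 differed by at most 0.06 in either arm, and none of these differences was called.

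Dkk3 behaved in another way: it differed between sets and hardly between environments. The arrays at C, 1g, 2g and ug read 8.26, 8.17, 8.10 and 8.27 for number 1, 8.05, 8.03, 8.08 and 8.08 for number 2, and 8.98, 8.95, 8.97 and 8.83 for number 3 of the IgG arm. In the E2 arm they read 9.0, 9.04, 8.90 and 8.55 in E2 1, 9.04, 9.09, 8.92 and 9.02 in E2 2, and 7.76, 7.67, 7.85 and 7.89 in E2 3. IgG 3, E2 1 and E2 2 are the high sets and IgG 1, IgG 2 and E2 3 the low ones. The sets were sorted here by the values of Dkk3 themselves, so the gap between the high and the low ones is a description and not a test.

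The set means of Dkk3 were 8.20 ± 0.08, 8.06 ± 0.02 and 8.93 ± 0.07 in IgG 1 to 3, and 8.87 ± 0.22, 9.02 ± 0.07 and 7.79 ± 0.10 in E2 1 to 3 (SD, n = 4). The highest and the lowest set of the IgG arm differed by 0.88, or 1.84-fold (limma F-test among the 3 sets, adjusted p = 1.46e-07). In the E2 arm they differed by 1.22, or 2.33-fold (limma F-test, adjusted p = 4.88e-10). Sets within an arm held 93.2% of the variation of Dkk3 over the 24 arrays, the antibody 2.78% and the environment within an arm 0.509%. Its SD over all arrays, 0.5, was larger than that of 99.3% of genes tested. Number 3 stands apart in each arm. Without it, the sets of number 1 and 2 were compared and 0 of the 5 members tested were called in either arm.

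**Figure D3:**
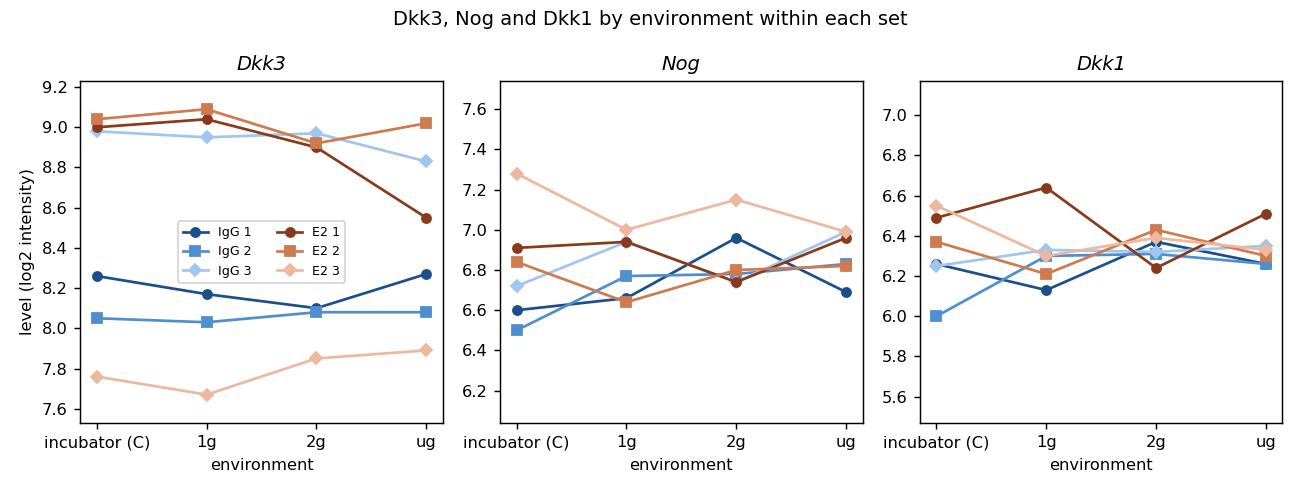
Log2 levels of Dkk3, Nog and Dkk1 (vertical axes, all of 1 span) in each environment, with a line for each of the 6 sets. Dkk3 splits into a high group (IgG 3, E2 1, E2 2), all at 8.55 or above, and a low group (IgG 1, IgG 2, E2 3), all at 8.27 or below, while the lines of Nog and Dkk1 cross.

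Such differences between sets were common on these arrays, being called for 25.2% of genes among the IgG sets and 39.3% among the E2 sets. Of the 5 members tested, 1 (Dkk3) was called among the IgG sets and 3 (Dkk3, Grem1 and Nog) among the E2 sets. Grem1 set means in the E2 arm ran from 12.67 in E2 2 to 12.89 in E2 3 (1.17-fold, limma F-test, adjusted p = 5.65e-06), and those of the IgG arm differed by 0.06 (adjusted p = 0.319). Nog ran from 6.78 in E2 2 to 7.11 in E2 3 (1.26-fold, limma F-test, adjusted p = 0.00944), and by 0.13 in the IgG arm (adjusted p = 0.475). In the E2 arm Dkk3 was lowest in the set where Grem1 and Nog were highest. Dkk1 and Wif1 passed in neither arm, with limma adjusted p-values from 0.402 to 0.756.

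Some marker genes of other cells moved with the same sets. The mean over 7 osteoclast or macrophage markers was 7.08, 7.07 and 6.71 in IgG 1 to 3 and 6.74, 6.73 and 7.14 in E2 1 to 3, so that it was low where Dkk3 was high. This came mostly from a pair of genes. Ctsk, the collagen-degrading protease cathepsin K, had set means of 11.69, 11.75 and 10.49, then 10.32, 10.33 and 11.89, and Cd68 had 9.12, 9.14 and 8.09, then 8.26, 8.21 and 9.14. Csf1r ran from 6.72 to 7.06 over the sets, and Acp5 from 6.32 to 6.48. The defining macrophage markers Adgre1 at 4.58, Ptprc at 5.12 and Itgam at 5.62 did not pass the filter. In all, 4 of 7 passed. The mean over 4 osteoblast markers ran with Dkk3, at 7.53, 7.60 and 7.83 in IgG 1 to 3 and 7.87, 7.82 and 7.53 in E2 1 to 3, and of these Alpl and Col1a1 passed the filter (2 of 4). Genes of other lists moved with the sets too. Gja1, the target of the antibody, had set means of 11.56, 11.5 and 11.93 in IgG 1 to 3, then 11.82, 11.86 and 11.42. Sox9, a chondrocyte marker, had 9.51, 9.38 and 10.3, then 10.53, 10.26 and 9.46. Fabp4, an adipocyte marker, ran the other way at 10.27, 10.3 and 9.97, then 9.63, 9.82 and 10.3. Pdpn and Col10a1 also ran the other way, and Capg did not follow the split of Dkk3. The part of these cell markers in the Dkk3 levels was not tested.

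Differences between sets were also called for some related antagonists. Against 25.2% and 39.3% of all genes, 4 of 12 further Wnt antagonists differed among the IgG sets (Igfbp4, Kremen1, Sfrp4 and Trabd2b) and 3 of 12 among the E2 sets (Kremen1, Sfrp4 and Trabd2b), which is near or below those shares. Of 12 further BMP antagonists, 4 differed among the IgG sets (Bmper, Chrdl1, Fst and Twsg1) and 7 among the E2 sets (the same 4 with Fstl3, Smad6 and Smad7). Not all of those called followed Dkk3: Igfbp4 had 10.18, 10.16 and 10.17 in E2 1 to 3. Sfrp4, another secreted Frizzled-related protein, had set means of 7.33, 7.17 and 7.69 in IgG 1 to 3 and 7.75, 7.70 and 7.01 in E2 1 to 3. Fst, the activin and BMP binder follistatin, had 9.43, 9.10 and 9.81, then 10.25, 9.95 and 9.20. Chrdl1, a chordin-like BMP binder, ran the other way at 6.57, 6.70 and 6.30, then 6.39, 6.36 and 6.64. Both Sfrp4 and Fst were therefore high in the sets where Dkk3 was high, and Chrdl1 was low there.

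Between E2 and IgG none of the members was called. Cells in the incubator gave the widest differences. Nog there was 7.01 ± 0.24 with Cx43(E2) and 6.60 ± 0.11 with IgG (SD, n = 3), a difference of 0.40 ± 0.13 (limma adjusted p = 0.0648). The Nog arrays read 6.91, 6.84 and 7.28 with Cx43(E2) and 6.60, 6.5 and 6.72 with IgG. Dkk1 was 6.47 ± 0.09 against 6.17 ± 0.15, a difference of 0.30 ± 0.10 (limma adjusted p = 0.0706), with arrays at 6.49, 6.37 and 6.55 against 6.26, 6.0 and 6.25.

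Both missed the threshold, in a comparison where 2.92% of genes were called, 1.6% higher with Cx43(E2) and 1.32% lower. An unadjusted limma p under 0.05 was common there, in 4329 genes (29.9%). Dim genes as a whole read higher there: genes below the median level shifted by a median of 0.11 and those above it by -0.04. Dkk1 and Nog lie below it, and the part of that shift in their differences was not tested. At 1g, 2g and ug 0 genes were called (1804, 626 and 1862 at an unadjusted p under 0.05). On set means, which take in all 4 environments, Dkk1 was 6.40 with Cx43(E2) and 6.26 with IgG (0.13 ± 0.05, limma adjusted p = 0.197). Its exact two-sided permutation p over the 6 set means was 0.1, the smallest this design allows, so this test cannot reach 0.05. The dim Dkk2 had the same value of 0.1 in this permutation test. Grem1 was 12.75 against 12.82 (-0.07 ± 0.06, limma adjusted p = 0.53) and Dkk3 8.56 against 8.40 (0.16 ± 0.36, limma adjusted p = 0.807), so that for Dkk3 the error exceeded the difference. Over set means 0 genes were called (3129 at an unadjusted p under 0.05).

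The platform values of Nog lay on opposite sides of the incubator in the arms, without passing a test. At C, 1g, 2g and ug it read 6.60, 6.66, 6.96 and 6.69 for number 1, 6.5, 6.77, 6.78 and 6.83 for number 2, and 6.72, 6.94, 6.74 and 6.99 for number 3 of the IgG arm. The E2 arm gave 6.91, 6.94, 6.74 and 6.96 for number 1, 6.84, 6.64, 6.80 and 6.82 for number 2, and 7.28, 7.0, 7.15 and 6.99 for number 3. The mean of the positions lay above C in all 3 IgG sets, by 0.17, 0.29 and 0.17, and below it in all 3 E2 sets, at -0.03, -0.08 and -0.23. Of the genes tested, 4.21% showed this pattern of signs. The difference between the arms was -0.32 ± 0.11 with the block (95% interval -0.56 to -0.09, limma adjusted p = 0.33), where 0 genes were called (1746 at an unadjusted p under 0.05). The IgG change of 0.21 ± 0.08 had a limma adjusted p of 0.156 with the block, beside a median shift of 0.05 of dim genes in that comparison. The E2 change of -0.11 ± 0.08 had one of 0.793. The incubator arrays of Nog serve both here and in the comparison of the antibodies at C, so these values are not separate evidence.

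**Figure D4:**
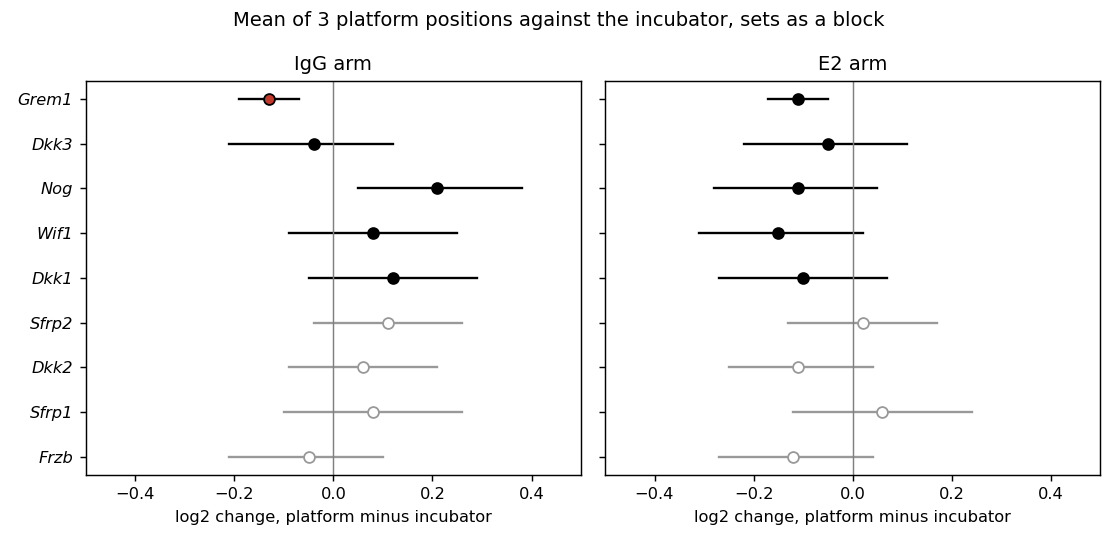
Log2 change from C to the mean of the 3 platform positions for each of the 9 genes, in the IgG and the E2 arm with the sets as a block, with 95% intervals as bars, where red marks a call and open grey a gene that did not pass the filter. Grem1 lies below 0 in both panels, at -0.13 and -0.11, and Nog lies at 0.21 in the IgG arm and -0.11 in the E2 arm.

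Wif1 and the dim members showed no called difference. In the E2 arm Wif1 read 6.44, 6.52 and 6.56 at C and 6.32, 6.25 and 6.22 at 1g, a difference of -0.24 ± 0.10 (limma adjusted p = 1), in a comparison in which 0 genes were called (453, or 3.13%, at an unadjusted p under 0.05). Its group means over the 8 groups ran from 6.26 to 6.5. Dkk2 group means ran from 5.54 to 5.77, those of Sfrp2 from 5.75 to 5.92, those of Sfrp1 from 5.14 to 5.34 and those of Frzb from 4.98 to 5.13. Over the 21 comparisons between groups without a block the changes of Dkk2 ran from -0.32 to 0.20 (lowest limma adjusted p 0.125, in a fit with no filter). For Sfrp1 they ran from -0.08 to 0.12, for Sfrp2 from -0.15 to 0.14 and for Frzb from -0.16 to 0.07. Whether RNA of these 4 genes was made at all cannot be read from rows at the dim end of the array.

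Calls on the platform among genes of the pathways around the antagonists are given beside the share over all genes, 97 (0.669%) in this comparison. At that share, counts of 0 or 1 in lists of this size say little about the lists. With both arms together and the block, 0 of 12 further Wnt antagonists were called (8 higher and 4 lower, median change 0.02), among them Sost at 7.04 in C and 7.05 to 7.1 at the positions. Of 12 further BMP antagonists 0 were called (5 higher and 7 lower, median -0.03), of 21 Wnt ligands 0 (12 and 9, median 0.01) and of 10 BMP ligands 0 (8 and 2, median 0.05). The median over all genes tested was -0.00, and 52.2% of them were lower. Of 26 Wnt receptors and signal proteins 1 was called lower and 0 higher (9 and 17, median -0.03), of 14 BMP receptors and signal proteins 0 (6 and 8, median -0.03), of 13 Wnt target genes 0 (5 and 8, median -0.01) and of 8 BMP target genes 0 (6 and 2, median 0.02).

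These values average arms whose medians differ in sign for the ligands and the further Wnt antagonists. In the IgG arm with the block 18 Wnt ligands were higher and 3 lower (median 0.06), against 5 and 16 in the E2 arm (median -0.06). The further Wnt antagonists gave 11 and 1 (median 0.08) against 4 and 8 (median -0.05), and the BMP ligands 9 and 1 (median 0.12) against 3 and 7 (median -0.02). The difference between the arms was below 0 for 20 of 21 Wnt ligands (median -0.14), for 11 of 12 further Wnt antagonists (median -0.12) and for 9 of 10 BMP ligands (median -0.14). It had a median of -0.01 over all genes and of -0.08 over genes below the median level, where most genes of these lists lie. Within the arms, genes below that level shifted by a median of 0.05 (IgG) and -0.04 (E2). The list medians had the same signs, and in the IgG arm all of them were larger, up to 0.12. The part of this shift in the counts was not tested, and 0 genes of these lists were called in any of these comparisons. The arms' changes and their difference share the incubator arrays.

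The receptor called was Fzd6, a Frizzled that is known mainly from planar polarity signalling. It fell by 0.19 ± 0.04 over both arms (limma adjusted p = 0.0359, lower in 6 of 6 sets). Its mean change was -0.25, -0.35 and -0.31 in IgG 1 to 3 and -0.04, -0.04 and -0.13 in E2 1 to 3. Being lower in 6 of 6 sets was not particular to Fzd6. Fzd8, Lrp6, Csnk1a1, Bmpr1a, Smad1 and Id2 were so too, and none of them was called over both arms. In the IgG arm with the block Fzd6 fell by 0.30 ± 0.06 (limma adjusted p = 0.0178), and Id2, an inhibitor of helix-loop-helix transcription factors that BMP signals induce, fell by 0.25 ± 0.06 (limma adjusted p = 0.0421). Over both arms Id2 lay at -0.17 ± 0.04 (limma adjusted p = 0.0501). Without the block 0 genes of these lists were called on the platform. Among the other BMP targets Hey1 lay at 0.21 ± 0.05 (limma adjusted p = 0.0842). The antibody comparison at C, without a block, called Wnt9a (0.29 ± 0.08, limma adjusted p = 0.0485) and Fzd10 (0.30 ± 0.08, limma adjusted p = 0.0473) higher with Cx43(E2). In that comparison 2.92% of genes were called, and genes below the median level, as Wnt9a at 7.58 and Fzd10 at 6.12 are, shifted by a median of 0.11. The part of this shift in both calls was not tested.

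**Figure D5:**
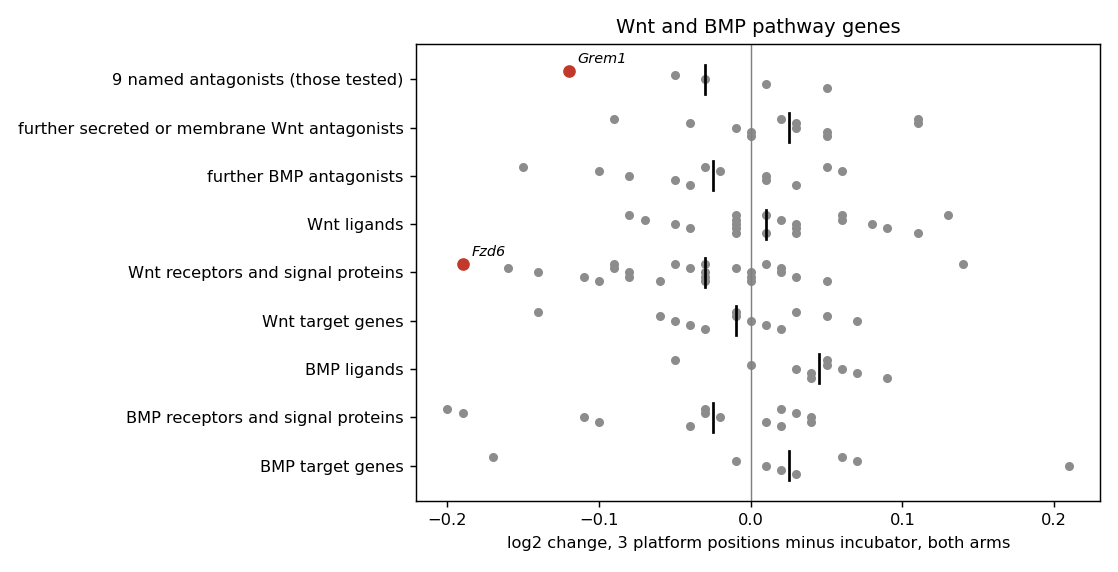
Log2 change from C to the mean of the platform positions, both arms together with the block, for each tested gene (points) of the antagonist, ligand, receptor and target lists, where red marks an adjusted p under 0.05 and a bar the median of a list. Grem1 and Fzd6 are the red points, and the medians lie between -0.03 and 0.05.

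Patterns over the arrays set the members apart from one another. Over the 24 arrays the genes closest to Grem1 were Nab1 (Pearson r = 0.878), Ranbp9 (0.869) and F2r (0.849), and with set means taken off they were Ildr2 (0.896), Bmp2k (0.862) and Fem1c (0.856). Those closest to Dkk3 were Srpx2 (0.979), Ptger3 (0.979) and Prkar1b (0.977), and with set means taken off Tmbim4 (0.92), Becn1 (0.876) and Lbp (0.853). The closest to Nog was Ccdc121 (0.91, and 0.932 with set means taken off), to Dkk1 Lce1k (0.909 and 0.958), and to Wif1 Phf24 (0.827), or Cytl1 (0.859) with set means taken off. Arrays of 1 set are not independent and each list was picked as the highest of 14489 genes, so these values describe the arrays only. For Grem1, sets within an arm held 49.8% of the variation, the environment within an arm 31.4% and the antibody 10.9%, whereas the median gene had 28.2%, 16.8% and 13.4%. The environment share includes any difference in response between the arms. Spread between arrays adds to each share and was not taken off.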

How the data were processed

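Total RNA of 24 samples was extracted with Trizol and biotin-labelled for Affymetrix arrays, per the labels' protocols. The values as deposited run on a log2 intensity scale, as their range shows. MAS5 is named, per the submitters' processing notes, without its role or version, and the scaling between arrays by the authors is not stated. Of 35556 rows, 21789 had 1 gene symbol in the array's probe table, 1621 several, and 12146 were not listed there; 21698 of the first matched RefSeq by gene number. A row was kept if on 3 or more arrays it reached the array's 40th percentile (22641, of which 15786 with 1 symbol), and the brightest row per gene gave 14489 genes. The dim members come from the fit with no filter (19938 genes). Replicate arrays differed with an SD of 0.209 to 0.381 and shared at most 6 values.

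The tests used limma 3.58.1 (R 4.3.3) on the log2 values: 8 group means over all arrays, moderated variances with a trend, two-sided, Benjamini-Hochberg adjustment over all genes tested, threshold 0.05. The code was tested on simulated data. The fit has no block (16 residual degrees of freedom), except that comparisons of both arms and between arms' platform changes, added after the data were seen, use the 6 sets as a block (12). The block takes the numbers in the titles to pair arrays within an arm. All 36 such pairs of deviations from group means correlated above 0.1 (lowest 0.195, median 0.511). Of 72 pairs of 1 arm with different numbers 23 did (median -0.452, highest 0.548). Deviations from a group mean cancel within the group, which by itself lowers the correlation of pairs with different numbers. Between arms the median was -0.388 for pairs with the same number and 0.347 for others. The pairing was thus read from the data, with no label to state it. Antibody differences in 1 environment could not be fitted with the block. Set differences were F-tests within an arm. The antibody was also compared over set means, with an exact permutation test.

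The members, the lists and the tests were chosen with earlier results of these data known. The 9 members are always named, of each list those called and otherwise at most 3 with the smallest p, with Sost and Gja1, and for each member tested the closest genes by correlation. Genes of the set-wise paragraphs (Sfrp4, Fst, Chrdl1 among those called) and cell markers were described after their values were seen. Coordinates are given only for the RefSeq promoter (GRCm38.p6).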

Additional observations from a re-analysis of the deposited data

How the results depend on the processing

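Of the 9 members, 4 did not pass the filter, and without it 0 are left out. In the IgG arm the platform comparison called 0 members, and 1 (Grem1) with the replicate block within arm (adjusted p = 0.0374). Over both arms the count of 1 (Grem1), for the mean of positions and for 1g alike, became 0 with no replicate block (adjusted p = 0.703 and 0.852), with a 3-level block of the numbers (0.559 and 0.677), with the set as a random replicate block (0.0868 and 0.143) and with no variance trend (0.0773 and 0.103); it was 1 with quantile normalization, with no filter and with the mean of a gene's rows. Leaving out single arrays or whole sets gave counts of 0 to 1. For the mean of positions, 21 of 24 fits without 1 array kept the call, at -0.13 to -0.11 and adjusted p = 0.00534 to 0.0729. It was lost without the IgG incubator array 1 (0.0642) or 2 (0.0729) or the E2 incubator array 2 (0.0515). Of 6 fits without a set, 4 kept it. At 1g it was lost without IgG 1g array 1 (0.0573) or 2 (0.0748), IgG incubator array 1 (0.0536) or 2 (0.101), E2 1g array 1 (0.0616), E2 incubator array 1 (0.0536) or 2 (0.0565), or set IgG 1 (0.135), IgG 2 (0.203), E2 1 (0.0607) or E2 2 (0.0746). At 2g, 0 members became 1 (Grem1) without E2 2g array 1 (0.0496) or set E2 1 (0.0465). For E2 against IgG at C, 0 became 1 with the 3-level block (Nog, 0.0453) and without set E2 1 (Dkk1, 0.0469). Among the IgG sets and among the E2 sets, 1 and 3 members became 0 without replicate 3. The cause of these moves was not tested. Values that changed sign were all uncalled: the Grem1 difference between arms (-0.02 with quantile normalization), Grem1 at ug in the E2 arm (-0.12 to 0.00 over fits without 1 array, 0.00 without E2 incubator array 3), Nog on the platform in the E2 arm (-0.20 to 0.02, 0.02 without that array), and Dkk3 with E2 against IgG over set means (-0.06 to 0.55 over fits without a replicate, -0.01 without IgG replicate 2, -0.06 without E2 replicate 2). The replicate block changed no other call of a member. Rows near the filter limit what Dkk2, Sfrp1, Sfrp2 and Frzb can show.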
